A study of Mus musculus with 6 samples.

Results

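The regions described here were called with both probe pools in replicate 2 of a ChIRP-seq experiment on the RNA Hoxc4-au and held no peak in replicate 1. All peaks of the 4 deposited lists that overlapped by at least 1 bp were joined, which gave 9344 regions on the mouse build mm9. Of these, 9086 held a peak of replicate 2, and 286 of the 9086 (3.15%) held a peak of both pools. A replicate 1 peak overlapped 42 of the 286, and 3 further regions on chromosome 4 (43575577 to 43579719) were left out, which leaves 241 regions. The regions were chosen by the peak calls of these libraries, that is, by a p-value under the caller's cutoff with each pool of replicate 2, so the strength of a call is described below without a test.

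ChIRP-seq maps where an RNA lies on chromatin. Biotinylated DNA probes complementary to the RNA pull it out of crosslinked, sonicated cells, and the DNA that comes along is sequenced. Alternate probes are kept in separate pools, even and odd, which share the target RNA but no probe, so a region called with both pools depends less on the sequence of any single probe. An input library is the same chromatin without capture, and its local read density is the background against which a peak is called.

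The cells were preadipocytes from the epididymal fat of C57BL/6 mice, and the labels name no treatment or genotype beyond the strain. Each of 2 replicates has an even-pool, an odd-pool and an input library, 6 libraries in all. The titles assign 1 pool to each captured library, while the protocol text names both pools for the lysates. The labels do not tell if separate mice or cultures stand behind the replicates, and what differs between them may be technical. No capture with probes against another RNA is among the 6 libraries. Signal that both pools collect without the RNA therefore cannot be told apart from signal that needs it.

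Replicate 2 was deeper than replicate 1. The caller kept 11514289 and 10231007 tags of the even and odd pools of replicate 2, against 3934792 and 4099230 in replicate 1. Before duplicates were removed the difference was smaller: 12744562 and 11019661 tags in replicate 2, of which 9.65% (even) and 7.16% (odd) were dropped, and 7513741 and 6854900 in replicate 1, of which 47.6% and 40.2% were dropped. Scaled counts below use the kept tags. The inputs kept 11924618 and 12179777 tags. The lists of replicate 2 held 5226 and 4157 peaks, and the 241 regions took up 245 (4.69%) and 244 (5.87%) of them.

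Most of the 241 regions were weak calls. The number of fragments over the summit had a median of 8 with either pool, with a range of 5 to 96 fragments (even) and 5 to 90 (odd), and 114 regions (47.3%) held 8 or fewer with both. The caller's fold enrichment over input had a median of 5.05 with the even pool (interquartile range 4.42 to 5.68) and 5.26 with the odd pool (4.61 to 5.92). A fold of 5 or more with both pools was reached by 86 regions (35.7%, exact binomial 95% interval 29.6 to 42.1). Over all replicate 2 regions 62% had a fold of 5 or more with every pool that called them, but a region with 2 peaks has to pass with both, and the call itself fixes the fold, so nothing is read from that difference. Only 2 of the 241 had a fold of 10 or more with both pools. A q-value above 0.05 was attached to at least 1 of the peaks in 13 regions and to both peaks in 1, the region on chromosome 18 at 4920490 to 4920713, with 5 and 6 fragments.

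The local background split the regions into groups of different height. It was recovered for each peak as (pileup + 1) / fold − 1 and is given in input fragments at the depth of the captured library. In 130 regions (53.9%) it lay at the caller's genome-wide mean with both pools (0.585 fragments, even, and 0.520 fragments, odd, within 0.005). In 29 regions (12.03%, 8.21 to 16.8) it was 10 or more with at least 1 pool, called a high background here, against 0.605% of all 9086 regions of replicate 2. The remaining 82 lay between. No peak of either replicate 2 list had a background under that mean, so the mean is a floor. The input at the 130 regions may have been lower. The high-background regions had the most fragments and the lowest folds: a median of 48 fragments with either pool and folds of 2.74 (even) and 2.84 (odd), compared with 7 fragments and folds of 5.05 and 5.26 in the regions at the genome-wide mean. A peak over a higher background needs more fragments to pass the caller's cutoff and can pass at a lower fold. The direction of this contrast is therefore set by the call and is not a separate result. Of the 39 regions with 20 or more fragments in both pools, 29 were the high-background regions.

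**Figure D1:**
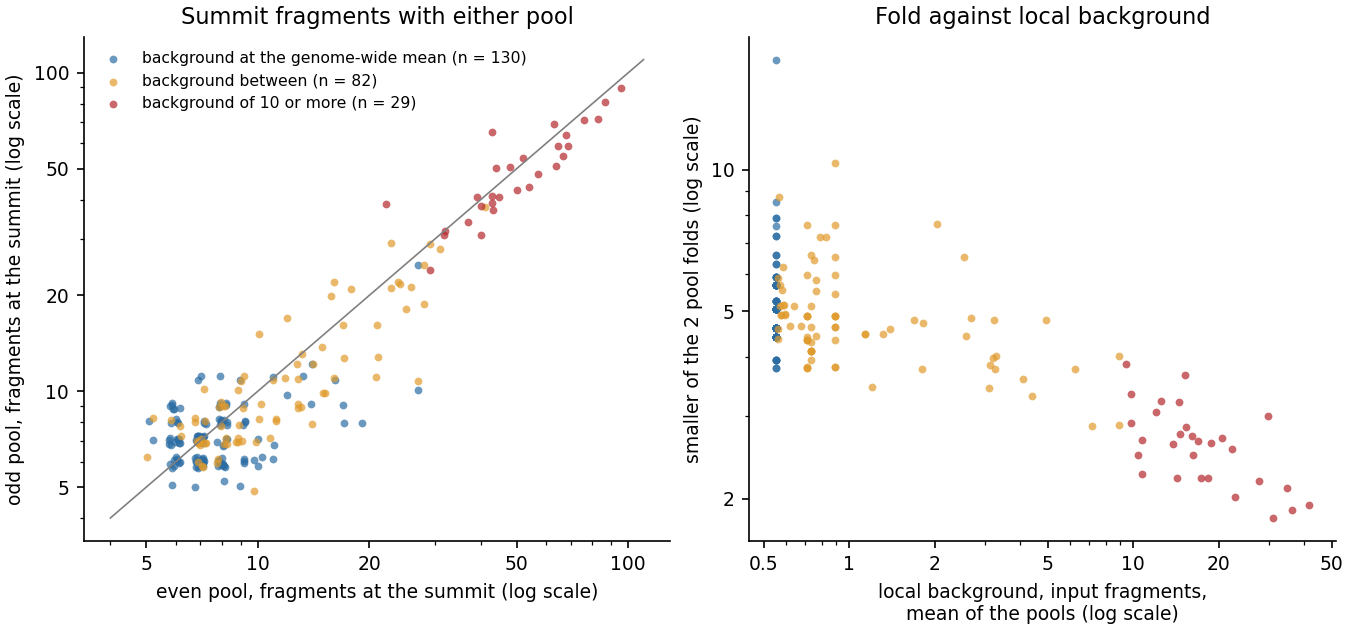
Left, fragments at the summit with the even and the odd pool for the 241 regions, both axes logarithmic, small random shifts added to separate equal counts, line at equal counts. Right, the smaller of the 2 pool folds against the local background. The 29 regions over a high background hold up to 96 fragments, and none of them reaches a fold of 5 with both pools.

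The share of regions called with both pools differed with the background. Over a high background, 37 of 55 replicate 2 regions held a peak of both pools (67.3%, exact binomial 95% interval 53.3 to 79.3). At the genome-wide mean this was 143 of 6727 (2.13%, 1.79 to 2.50), and between these 106 of 2304 (4.60%, 3.78 to 5.54). Thus 29 of the 55 high-background regions of replicate 2 belonged to the 241, 8 also overlapped a replicate 1 peak with both pools, and the rest held a peak of 1 pool. Both pools were called against the same input library, so the background is shared between them. Its part in these shares was not tested. A two-pool region was also placed by the higher of its 2 backgrounds, and a single-pool region by its only one. This rule moves two-pool regions toward the higher groups, and its size was not measured. The same holds for the high-background share over all replicate 2 regions given above. The intervals cover counting error only.

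The strongest of the 241 by the smaller of its folds lay on chromosome 16 at 69604247 to 69604504. It held 27 fragments with the even pool (exact Poisson 95% interval 17.8 to 39.3) and 25 with the odd pool (16.2 to 36.9) over a background at the genome-wide mean, with folds of 17.7 and 17.1. Its neighbour, 111 bp to the left at 69603873 to 69604135, was also called with both pools of replicate 2 (18 and 11 fragments) and held a replicate 1 peak of the odd pool with 5 fragments and a fold of 4.47. The −log10 q-value of this replicate 1 peak was 0.823, a q-value above 0.05, and the even pool of replicate 1 had no peak there. The strongest region thus stood beside a weak call of 1 pool of replicate 1.

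Next by the smaller fold was a chromosome 17 region at 36100754 to 36101077, with 25 and 18 fragments (even, odd) and folds of 13.4 and 10.3. Its neighbour 63 bp away, at 36101141 to 36101364, stood lower in the order and held 17 and 13 fragments with folds of 11.4 and 7.61. The nearest replicate 1 region lay 3879 kb from the pair.

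The other regions of the 10 strongest had a smaller fold of 7.57 to 8.74. On chromosome 3 (108193548 to 108193731) both pools gave 13 fragments, with folds of 8.74 and 9.12 and summits 3 bp apart. On chromosome Y (2397389 to 2397522) there were 14 and 12 fragments, over a background at the genome-wide mean. The regions on chromosome 12 (60172906 to 60173262) and chromosome 13 (97960453 to 97960587) had 16 and 11, and 13 and 11 fragments. With 11 fragments from either pool, the chromosome 7 region (138959856 to 138960292) closed the group. The chromosome 10 region (79829924 to 79830445) was 522 bp wide and held 21 fragments (even) and 13 (odd). These counts carry wide intervals, for example 6.92 to 22.2 for 13 fragments, so the order within the group is not resolved.

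Clustering was uneven. Another of the 241 lay within 10 kb of 38 regions (15.8%, 11.4 to 21.0), while the median distance to the nearest other one was 1269 kb. To the nearest other replicate 2 region of any kind the median distance was 12136 bp, and 115 of the 241 (47.7%) had one within 10 kb. The same shares over all replicate 2 regions were not worked out. Runs of 3 or more regions with gaps of at most 10 kb held 24 of the 241, in 4 runs on chromosomes 11, X and Y. Of the regions over a high background 17 of 29 had another within 10 kb, compared with 17 of the 82 between and 4 of the 130 at the genome-wide mean.

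On chromosome 11, 12 regions formed runs of 8 (3027326 to 3060170, 32.8 kb) and of 4 (3088295 to 3097128, 8.83 kb). They lie near the low-coordinate end, where mouse chromosomes carry the centromere: the first peak of any list on chromosome 11 starts at 3001220, and 13 of the 241 lie within 200 kb of it. The longer run held 40 to 68 even-pool and 38 to 64 odd-pool fragments over backgrounds of 8.40 to 24.6, with folds of 2.56 to 4.16. In the shorter run the region at 3093011 to 3093647 had the most fragments of all 241, 96 (77.8 to 117) and 90 (72.4 to 111), over backgrounds of 30.3 and 29.4 and with folds of 3.10 and 2.99. At 3088295 to 3088444 the pools differed most, with 43 (31.1 to 57.9) even-pool and 65 (50.2 to 82.8) odd-pool fragments, whose intervals overlap. Between the outermost regions of the longer run there were 3 further calls with the even pool alone. The nearest replicate 1 region to either run lay 777 kb away. Single high-background regions also stood within 200 kb of the first peak on chromosome 4 (3017212 to 3017534, 39 and 41 fragments) and on chromosome 17 (3084274 to 3084451, 29 and 24 fragments).

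On chromosome X, all 9 regions lay in 1 run of 14.4 kb (166421481 to 166435929). Its regions held 10 to 31 even-pool and 15 to 39 odd-pool fragments, and 8 of the 9 stood over backgrounds under 10. The odd pool had the higher fold at 7 of the 9, while over all 241 the even pool had the higher fold in 109 (45.2%). Per kept tag, the median ratio of even-pool to odd-pool fragments was 0.969 in the run and 0.948 over all 241. At the strongest, 166428000 to 166428620, folds were 7.65 with the even pool (23 fragments, 14.6 to 34.5) and 10.3 with the odd pool (29 fragments, 19.4 to 41.6). The run also held the widest of the 241, the 746 bp region at 166426524 to 166427269, which joined 3 even-pool peaks and 1 odd-pool peak. Its neighbour 47 bp to the right, at 166427317 to 166427517, was the one over a high background, with 22 fragments over 5.67 with the even pool and 39 over 15.1 with the odd pool. The last of the run, at 166435490 to 166435929, had 28 and 19 fragments and went the other way, with folds of 6.07 and 3.31. This run lies at the high-coordinate end of what was called on chromosome X, 8185 bp before the end of the last peak of any list. The whole chromosome had 22 replicate 2 regions, 11 of them inside the run.

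On chromosome Y, 5 high-background regions lay between 2853440 and 2884885, the last 3 of them in a run of 15.6 kb. The 3 highest backgrounds of the 241 were among them. The region at 2858905 to 2859063 held 87 fragments with the even pool over 44.4 and 81 with the odd pool over 38.6, with folds of 1.94 and 2.07. At 2877195 to 2877359 there were 76 and 71 fragments over 39.7 and 32.8, and at 2884621 to 2884885 there were 83 and 72 over 35.9 and 33.6. The last region ends 13772 bp before the end of the last peak called on the chromosome. Outside chromosomes 11 and Y the highest background, as the mean over both pools, was on chromosome 19 (31.1), where the region at 61275582 to 61275695 held 69 and 59 fragments with folds of 2.24 and 1.82. Chromosome 3 followed at 56379374 to 56379694 with 63 and 69 fragments (mean background 27.6), then chromosome 12 at 68160169 to 68160521 with 64 and 51 (22.7). With the even pool alone the last 2 change places, at 28.4 on chromosome 3 and 31.2 on chromosome 12.

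**Figure D2:**
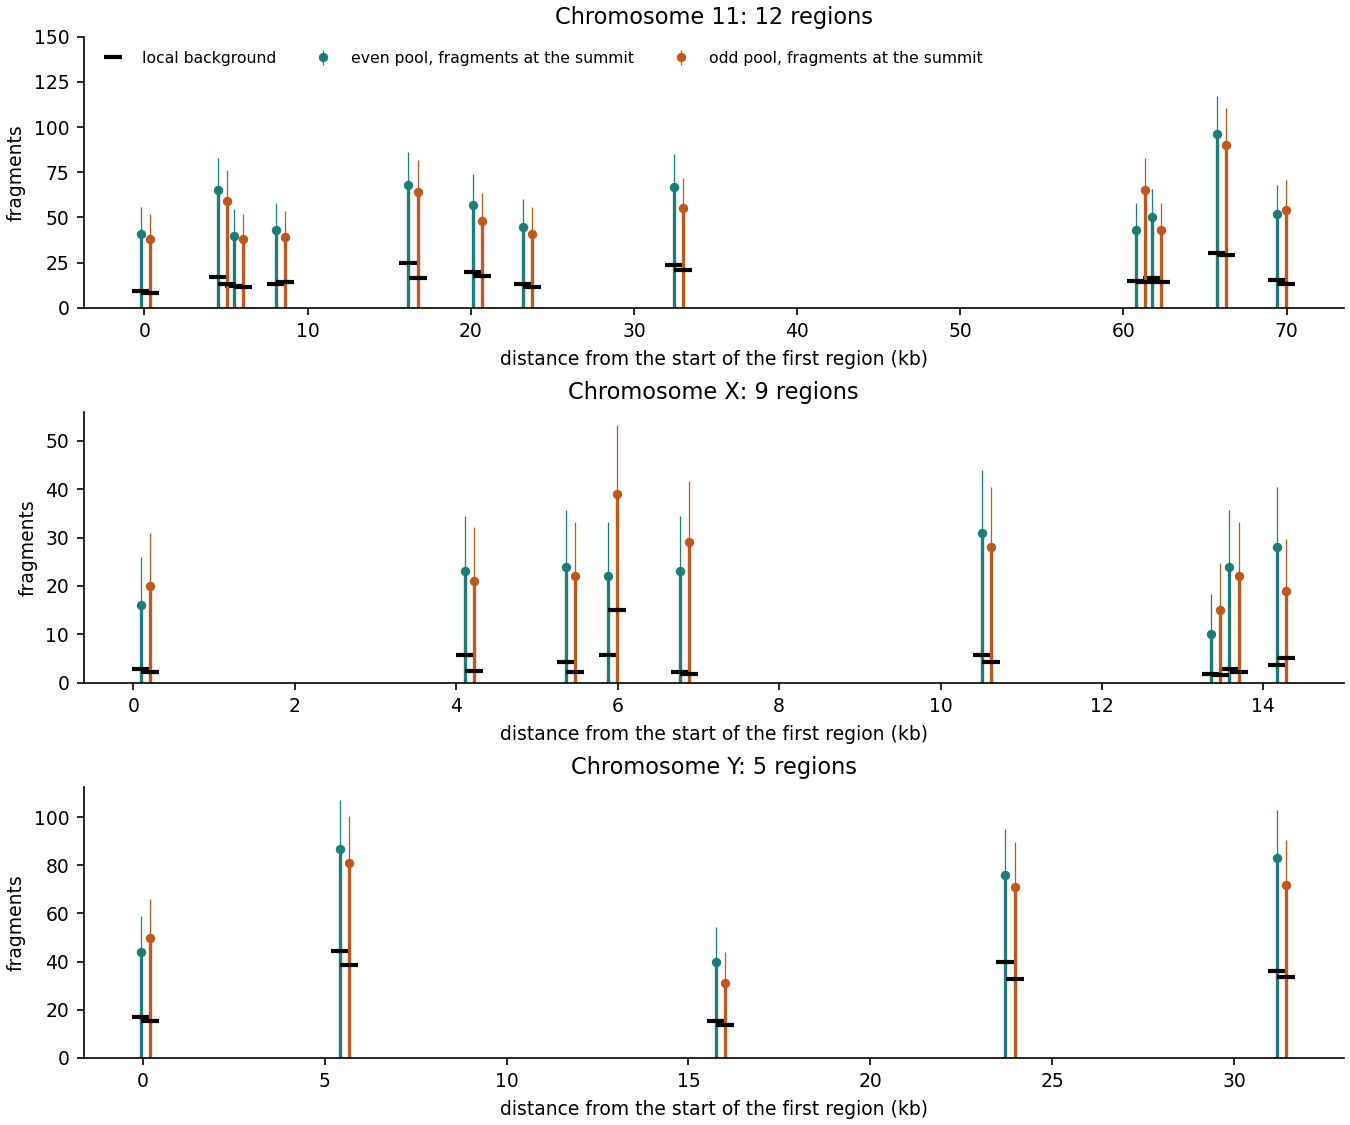
Fragments at the summit with the even and odd pools (points, with exact Poisson 95% intervals) and local background (black dashes) for the runs on chromosomes 11 and X and for the run and the pair beside it on chromosome Y, against the distance in kb from the start of the first region. Backgrounds run from 1.69 to 15.1 fragments on chromosome X, from 8.40 to 30.3 on chromosome 11 and from 13.4 to 44.4 on chromosome Y.

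Shorter groups were pairs. Those at 90153344 to 90154604 on chromosome 1, 20239017 to 20240211 on chromosome 12 and 120277491 to 120278597 on chromosome 13 spanned 1.11 to 1.26 kb, stood over backgrounds of 0.840 to 4.73 and held 9 to 22 fragments. Both regions of the chromosome 1 pair had more fragments with the odd pool, 21 and 22, than with the even pool, 18 and 16. The pairs on chromosome 19 (10320148 to 10321274) and chromosome 4 (136852242 to 136857853) were weak, with 6 to 8 fragments per pool over the genome-wide mean background.

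By chromosome, the 241 regions stood out from the single-pool regions of replicate 2 on chromosomes 11, X and Y. On each of the others the single-pool share lay inside the exact binomial 95% interval of the 241. Chromosome 11 held 35 (14.5%, 10.3 to 19.6), compared with 9.42% of the 8781 single-pool regions without a replicate 1 peak and 9.52% of all replicate 2 regions. Without the regions over a high background it held 23 of 212 (10.8%, 7.0 to 15.8). Chromosomes X and Y held 3.73% and 2.90% of the 241 but 0.137% and 0.0342% of the single-pool regions, which is 12 and 3 regions. Of all replicate 2 regions on a chromosome, the 241 made up 1.26% (chromosome 6) to 4.05% (chromosome 11) on the autosomes, 9 of 22 on chromosome X and 7 of 10 on chromosome Y. All 9 on chromosome X are the single run described above, so they are neighbours and not separate places, and 5 of the 7 on chromosome Y also lie close together. Without the high-background regions chromosome X held 8 of 212 (3.77%, 1.64 to 7.30) and chromosome Y 1 of 212 (0.472%, 0.0119 to 2.60), and the interval for Y then holds the single-pool share. The intervals count neighbours as separate regions and were not adjusted for the number of chromosomes, so they describe the shares and are not a test. With the runs of 3 or more left out instead, chromosome 11 held 23 of 217 (10.6%, 6.84 to 15.5), chromosome X 0 and chromosome Y 4. Leaving the runs out was an alternative chosen after seeing the data.

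**Figure D3:**
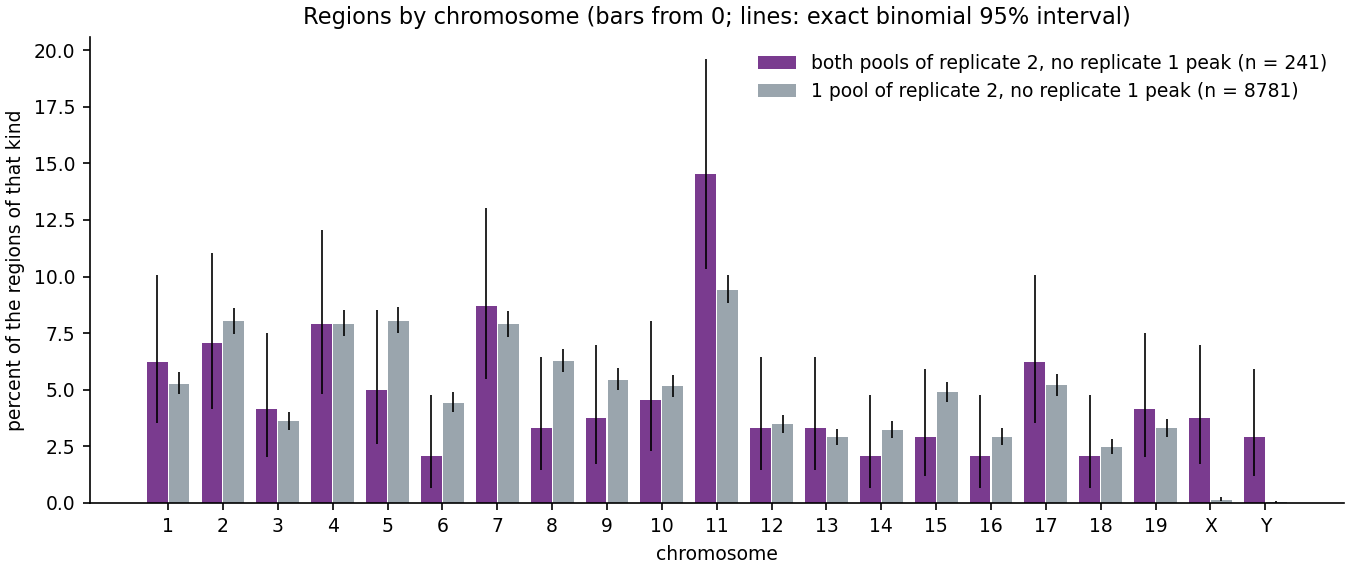
Percent of the 241 regions (purple) and of the 8781 single-pool regions of replicate 2 (grey) on each chromosome, bars from 0, lines exact binomial 95% intervals that cover counting error only. Chromosome 11 reaches 14.5% against 9.42%, and chromosomes X and Y 3.73% and 2.90% against 0.137% and 0.0342%.

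The pools gave similar heights, but each region had to pass the same p cutoff with both pools over 1 shared input. Many lay just above that limit, and the 8781 regions called with 1 pool and no replicate 1 peak are left out. Similar heights thus follow in part from the rule and are not a separate result. The ratio of even-pool to odd-pool summit fragments, each per kept tag, had a median of 0.948 (interquartile range 0.811 to 1.07) and lay within 1.5 times in 207 regions (85.9%). In all 241 the exact Poisson 95% intervals of the fragment counts overlapped between the pools, and at 7 or 8 fragments such intervals are wide. The highest ratios among regions under a background of 10 were 2.40 on chromosome 4 (154777267 to 154777493, 27 and 10 fragments), 2.18 on chromosome 17 (24125904 to 24126174, 27 and 11) and 2.11 on chromosome 9 (25208331 to 25208900, 19 and 8). The lowest were 0.555 on chromosome 5 (46007643 to 46007786, 5 and 8 fragments) and chromosome 11 (59121506 to 59121690, also 5 and 8), and 0.565 on chromosome 11 (94334977 to 94335219, 7 and 11). Across regions the ranks of the fragment counts went together over a high background (Spearman rho = 0.89, n = 29) and hardly at the genome-wide mean (rho = 0.20, n = 130). In the 29, rho was 0.85 for the background, which the pools share through the input, and 0.60 for the fold. A higher background needs more fragments for a call, so the 0.89 is not a separate measure of agreement between the pools. These are descriptions over regions of the same 2 libraries and 1 input. The 130 regions span few distinct counts just above the calling limit.

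Even and odd summits often lay apart. The median distance was 51 bp, and in 61 regions (25.3%, 19.9 to 31.3) it exceeded 95 bp, the length to which tags were extended. No extended tag can then cover both summits. This does not hold for the captured DNA itself, whose length the lists do not give. Distances were short over a high background, with a median of 13 bp, and longer at the genome-wide mean, with 56 bp. Under a background of 10, the 80 regions whose weaker pool had 5 or 6 fragments had a median distance of 69.5 bp, and the 25 whose weaker pool had 12 or more had 30 bp. Neither pool lay to one side: the even summit had the lower coordinate in 117 of 241 and the same one in 5. The regions were 190 bp wide in the median (quartiles at 155 and 243 bp), a width that spans at least 2 peaks, and 5 were 500 bp or wider.

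At the edge of the rule, 3 regions owed their place to a single shared base, such as that on chromosome 17 at 13734857 to 13735186, with 11 fragments from either pool. Just outside it, the even and odd peaks on chromosome 1 at 157084842 to 157084936 and 157084741 to 157084841 touched without overlap, with folds of 5.14 and 5.26. In total 55 even-only regions had an odd-only region within 100 bp.

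The absence of a replicate 1 peak has to be read against its depth. Summit fragments were multiplied by the ratio of kept tags to give the number that the same coverage would yield at the depth of replicate 1. The fewest fragments in any replicate 1 peak were 4, and 157 of the 241 regions (65.1%, 58.8 to 71.1) fell short of 4 with both pools and 176 (73.0%) with at least 1. Medians were 2.73 (even) and 3.21 (odd). At equal coverage per tag the 157 would lie under the weakest call of replicate 1 with both pools. For them the missing peak does not show a difference between the replicates. This does not extend to regions short of 4 with only 1 pool, since a peak of the other pool alone would exclude them. An example is the chromosome 16 region at 17941539 to 17941794, with 5.81 (even) and 3.21 (odd) scaled fragments. Such regions were not examined further.

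Among the 65 regions that reached 4 scaled fragments with both pools, 29 were the high-background regions, with 7.52 to 32.8 (even) and 9.62 to 36.1 (odd) scaled fragments. Replicate 1 peaks over 3 or more input fragments held at least 19 (even, 33 peaks) and 16 (odd, 26 peaks), so 4 is too low a limit there. The 29 had medians of 16.4 (even) and 19.2 (odd) scaled fragments, so with either pool some lay above these counts and some under them. The chromosome 11 region at 3093011 held the most, 32.8 and 36.1. The counts that replicate 1 would need over each scaled background were not worked out. Of the 36 others, 6 stood at the genome-wide mean background with both pools and 30 between. The background was therefore scaled in the same way, and the resulting fold was set against the lowest fold of replicate 1 peaks over fewer than 3 input fragments (3.72 with either pool), a comparison added after the values were seen. With both pools, the scaled background was under 3 and the scaled fold at or above that limit in 19 of the 36, namely all 6 at the genome-wide mean and 13 of the 30 between. The chromosome 16 region at 69604247 is among the 19 (9.23 and 10.0 scaled fragments, scaled folds of 8.52 and 9.12), as are both regions of the chromosome 17 pair (scaled folds of 7.21 and 6.14 at 36100754, 5.68 and 4.65 at 36101141). Of the 7 regions of the chromosome X run among the 36, 4 reached it and 3 did not. The chromosome 11 region at 3027326 to 3027475, with 14.01 and 15.2 scaled fragments over scaled backgrounds of 3.23 and 3.37, is not among the 19. Replicate 1 peaks over 3 or more input fragments began at backgrounds of 3.30 (even) and 4.47 (odd). Their fewest fragments, 19 and 16, were thus held over higher backgrounds and set no limit for this region. Their lowest folds were 1.74 (even) and 1.87 (odd), under the scaled folds of this region, 3.548 and 3.717. The comparison therefore does not decide whether it would be called. A count and a fold above these limits do not ensure a call, since the caller's cutoff is on the p-value. For the same reason a fold under the limit does not exclude a call. Whether the coverage of replicate 1 differed was not tested, because the lists give fragments only where a peak was called.

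**Figure D4:**
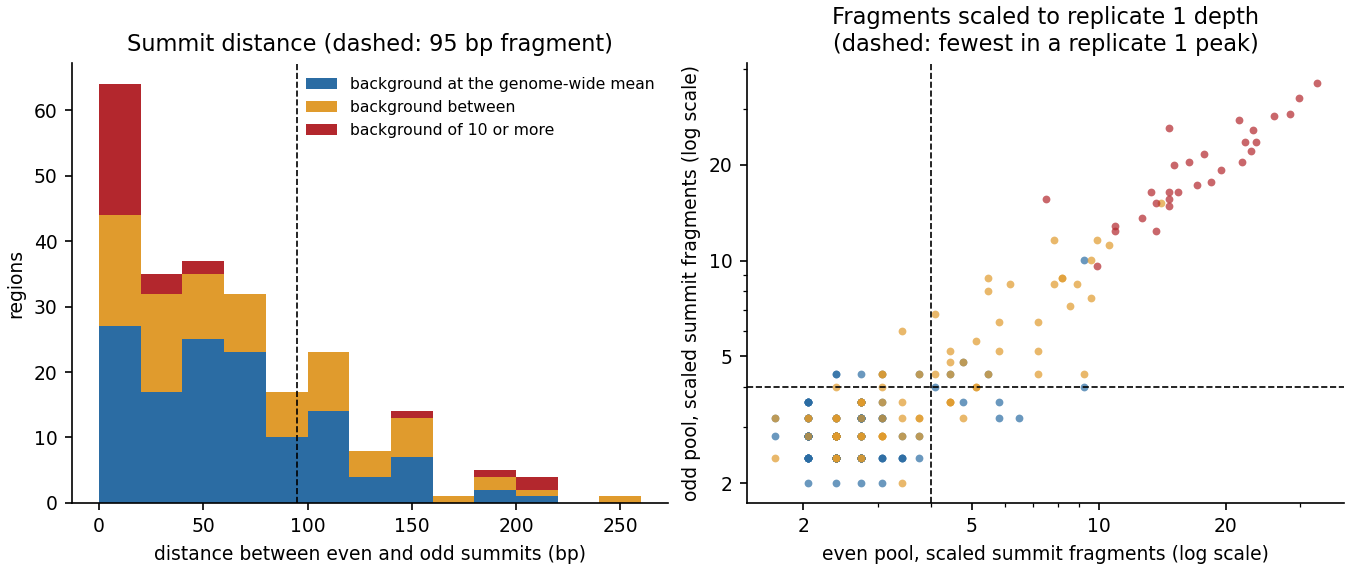
Left, distance in bp between even and odd summits in the 241 regions, stacked by local background, with the 95 bp to which tags were extended dashed. Right, summit fragments scaled to the kept tags of replicate 1, both axes logarithmic, with the 4 fragments of its weakest peaks dashed; 157 regions lie under 4 with both pools.

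Replicate 1 calls lay close to 3 of the 241 and within 100 kb of 11. On chromosome 9, the region at 67653770 to 67653979 (16 and 11 fragments) stood 83 bp from one called with both pools of replicate 2 (20 and 15 fragments) and with the odd pool of replicate 1 (7 fragments, fold 6.43). On chromosome 16, the region at 17941539 to 17941794 (17 and 8 fragments) stood 826 bp from a region with a peak in all 4 lists (17940402 to 17940712). With the chromosome 16 region at 69604247, these are the 3. The smallest overlap by which a replicate 1 peak took a two-pool region out of the set was 91 bp, so no region was removed by a few bases.

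Regions of replicate 2 with both pools and a replicate 1 peak were stronger than the 241. The 42 had medians of 17.5 and 15 fragments (even, odd) and folds of 7.64 and 7.90, and 31 of them (73.8%) had a fold of 5 or more with both pools. Their summits lay closer, at a median of 16 bp, and 8 of the 42 (19.0%, 8.60 to 34.1) stood over a high background, a share whose interval overlaps that of the 241. Single-pool regions had a median of 7 fragments with either pool and the same median folds as the 241, 5.05 for the 4927 even-only and 5.26 for the 3854 odd-only regions. They differed in background: 17 of 8781 (0.194%, 0.113 to 0.310) stood over a high one, although a single-pool region has only 1 background that could be high. These comparisons rest on the calls that define the groups, and no test was made.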

How the data were processed

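ChIRP-seq peak lists of 4 captured libraries (even and odd pools, 2 replicates) were used. Per the submitters' processing notes, FastQC, cutadapt, Bowtie and MACS2 and the build mm9 were used; how multiply mapping reads were treated is not stated there. Per the file headers, the authors called peaks with MACS 2.1.1.20160309 for each library against the input of its replicate, with tags extended to 95 bp, a p cutoff of 5e-05 and 1 tag kept per position, which limits a summit to 190 fragments. The deposited columns hold per peak the −log10 p-value and −log10 q-value, the fold over input and the signal (pileup in fragments); the caller's fold is (pileup + 1) / (background + 1). All captured libraries were smaller than their inputs, so pileups are unscaled.

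Overlapping peaks were joined and, where a list had several peaks in a region (6 of 241), the one with the lowest p was used. Python 3.11.15, numpy 2.4.6, pandas 2.3.3, scipy 1.17.1 and matplotlib 3.10.9 were used, and the joining was tested on simulated lists. Intervals are exact Poisson or exact binomial at 95% and cover counting error only. No test was run, because the rule used the peak calls and each pool has 1 library per replicate. Named regions are the 10 strongest by the smaller fold, the 10 over the highest background, runs of 3 or more, the 3 widest, the 3 highest and 3 lowest pool ratios, the 3 weakest, and those within 10 kb of a replicate 1 peak; other regions named were chosen after their values were seen. The regions and these rules were chosen with earlier results of these data known. Alternatives changed the joining, thresholds, list length, background limit and use of replicate 1. Gene annotation and sequence of mm9 were not used here.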

Additional observations from a re-analysis of the deposited data

How the results depend on the processing

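The number of regions depended on how strong a call had to be. It was 241 as described, 178 to 290 under other ways of joining peaks, 228 with a q of 0.05 or lower, 86 with a fold of 5 or more, 59 among the 1000 strongest peaks of each list and 24 with a −log10 q of 5 or more. With replicate 1 left out it was 283, with 21.6% within 10 kb of another, 13.1% over a high background and 13.4% on chromosome 11. The median smaller fold, 4.61 as described, was 5.68 with a fold of 5 or more and in the 1000 strongest peaks, and 7.22 where the −log10 q had to reach 5. The median background was 0.893 in both of the last sets, against 0.552. Median width was 216.5 bp with gaps of up to 100 bp joined, 261.5 where the −log10 q was at least 5 and 220 among the 1000 strongest peaks.

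The share on chromosome 11 was 8.14% with a fold of 5 or more, 20.3% among the 1000 strongest peaks and 25% where the −log10 q was at least 5. The share over a high background was 0% with a fold of 5 or more and, by construction, without those regions, 32.2% and 25% in the last 2 sets, 3.73% with a limit of 20 input fragments and 6.45% without the runs of 3 or more, an alternative chosen after seeing the data. The share within 10 kb of another was 6.98%, 35.6% and 50% with a fold of 5, among the 1000 strongest and with a −log10 q of 5. It was 9.43% without the high-background regions and 6.45% without the runs. At distances of 1 and 100 kb it was 8.71% and 24.1%. Apart from the settings that define a set by strength, the cause of these shifts was not tested. Of 92 values under alternatives, 64 stayed within the counting error of the reported value or, for counts, within 1.5 times.

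No paired analysis was possible because no result comes from a test. Each pool has 1 library per replicate, so the spread between replicates is not measured here, and at 5 to 8 fragments neither the height of a region nor the order of regions is resolved.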
